A study of Homo sapiens with 120 samples.

Results

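The genes described here are 217 zinc finger genes, those with a symbol of ZNF followed by digits only and a mean log2 signal of 7.0 or more over the 120 arrays of the series. They are 217 of 425 such ZNF genes with a probe set (a set of short probes for 1 transcript) that names 1 gene, taking for each gene the brightest of its probe sets by mean signal. The mean level chose the members, so levels are given as a description with no test. Treated arrays count in this mean, so a gene that rose could pass the limit through its rise. Just inside the limit lay ZNF350 at 7.006 and ZNF862 at 7.002, and just outside it ZNF8 at 6.97 and ZNF438 at 6.96. The other 208 ZNF genes lay below 7.0. All 217 members were among the 14023 genes bright enough to be tested, as were 83 of the 208.

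The series measured total RNA of TK6, an established human B lymphoblastoid cell line, on 120 arrays after 4 h or 24 h of culture. Formaldehyde (FA), a reactive aldehyde that forms links between protein and DNA, was tested at 3 doses, 50 µM, 100 µM and 200 µM. The alkylating agents methyl methanesulfonate (MMS; 80 µM, 160 µM or 320 µM) and ethyl methanesulfonate (EMS; 1 mM, 2 mM or 4 mM) are named clastogens, agents that break chromosomes, in the study's design text. Colcemid and vincristine, which bind tubulin, are named aneugens there. Their doses are labelled 1, 2 and 4 µg/ml, but leading zeros in the sample titles leave it unclear whether a decimal point was lost, so they are called lowest, middle and highest. Untreated arrays were run for every chemical at 4 h and 24 h, which makes 40 groups of 3 arrays, numbered by experiment from 1 to 3. All groups are of 1 cell line, and nothing in the labels says whether experiments came from separate thaws, so p-values measure the spread between these arrays. A change below is the treated minus the untreated mean log2 signal of the same chemical's set and time, given ± its SE (standard error). The SE rests on a spread that limma estimates over all groups of a fit and moderates across genes, with 3 arrays a group. A gene is called where the adjusted p from limma, taken over all 14023 tested genes, was under 0.05.

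Most proteins of this family carry rows of C2H2 zinc fingers, each finger folding around a zinc ion and reading a few bases of DNA. The largest class joins the fingers to a KRAB domain, which recruits the co-repressor TRIM28 and through it the histone methyltransferase SETDB1, and many of these proteins keep transposable elements silent. Others activate promoters, build chromatin complexes, bind RNA or serve the ribosome. Their messenger RNAs are known to be short-lived as a class, and the KRAB genes lie largely in clusters, many of them on chromosome 19. In a bulk sample fewer cells with a transcript and less of it per cell cannot be told apart.

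The members lay on 21 chromosomes, with 75 (34.6%) on chromosome 19, 23 (10.6%) on chromosome 7, 19 on chromosome 16 and 14 on chromosome 1. Their genes were 966 to 467802 bases long, with a median of 22915. Promoters are shown for ZNF644, ZNF594 and ZNF708, which were among the deepest falls after 4 h of formaldehyde, and for ZNF79, which rose furthest at 24 h. Each run is the 160 bases before the gene's RefSeq start in GRCh38.p14, 5′ to 3′ on the gene's strand: chr1:91022036-91022195 (minus strand) for ZNF644, chr17:5191869-5192028 (minus) for ZNF594, chr19:21329411-21329570 (minus) for ZNF708 and chr9:127424222-127424381 (plus) for ZNF79. Capitals mark matches, on either strand, to the GC box GGGCGG, the CCAAT box CCAAT or the ETS motif CCGGAAG.
ZNF644: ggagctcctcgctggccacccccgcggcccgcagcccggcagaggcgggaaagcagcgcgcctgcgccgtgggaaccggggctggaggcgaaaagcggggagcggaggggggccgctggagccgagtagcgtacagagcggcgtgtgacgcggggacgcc
ZNF594: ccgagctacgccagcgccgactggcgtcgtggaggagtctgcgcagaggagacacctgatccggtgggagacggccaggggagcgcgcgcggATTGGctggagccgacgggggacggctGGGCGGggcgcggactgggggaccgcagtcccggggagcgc
ZNF708: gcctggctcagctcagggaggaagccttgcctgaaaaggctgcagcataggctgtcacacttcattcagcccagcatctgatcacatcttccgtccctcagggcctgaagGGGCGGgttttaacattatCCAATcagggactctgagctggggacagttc
ZNF79: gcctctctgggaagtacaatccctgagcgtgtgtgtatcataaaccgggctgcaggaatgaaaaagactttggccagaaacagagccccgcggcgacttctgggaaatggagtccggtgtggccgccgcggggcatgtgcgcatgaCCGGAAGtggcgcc
The promoter of ZNF644 held none of these motifs in this window, those of ZNF594 and ZNF708 each held 1 GC box and 1 CCAAT box, and that of ZNF79 held 1 ETS motif close to its start.

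RefSeq promoters were matched for 190 of the 217 members, and the 250 bases before each start were searched on both strands. The ETS motif CCGGAAG stood in 66 members (34.7%), against 14.8% of the 11163 tested genes with a promoter, and the CCAAT box in 91 (47.9%), against 34.7%. The GC box GGGCGG was in 65.3% of members and 63.0% of all, and the TATA box TATAAA in 3.16% and 6.35%. The NRF1 motif was in 6 members (3.16%, against 1.84%), the cAMP response element TGACGTCA in 8 (4.21%, against 2.77%) and a p53 element in 9 (4.74%, against 4.72%). Of the 124 members with a promoter that were lower after 4 h of 200 µM formaldehyde, 30.6% held the ETS motif and 50% the CCAAT box. The median change of members with the ETS motif was -0.33, and -0.41 without it. A match is a description of these letters, and none of the spelled motifs contains another.

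TK6 was checked against its markers before the results. All 7 measured B cell markers of 8 listed were above the floor of 6.183 on all 120 arrays, MS4A1 at a median of 12.0 and PAX5 at 11.5. Of 15 measured markers of other cell types, CD14, LYZ, MPO and EPCAM were below the floor on every array, while NKG7 (median 8.07), COL1A1 (8.36), HBB (8.05) and KRT8 (8.55) were above it on all. The summed log2 signal of the 15 was 95.9 to 96.3 on the untreated formaldehyde arrays at 4 h and 98.3 to 100.2 at 200 µM, where 4 of the 11 tested were higher and 0 lower, and 91.3 to 92.8 at 24 h of 320 µM MMS against 94.2 to 95.3 untreated, where 7 were lower and 0 higher. The part of these genes in the results below was not tested. The array medians over all probe sets lay between 6.133 and 6.243, and no 2 arrays were identical. The number of arrays limits the precision: the median SE of a member's change at 4 h of 200 µM formaldehyde was 0.0806.

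The median log2 signal of the 217 members moved with chemical, dose and time. On the untreated formaldehyde arrays at 4 h it was 8.23 to 8.26, with 50 µM 8.17 to 8.27, with 100 µM 8.09 to 8.15 and with 200 µM 7.69 to 7.72. At 24 h the formaldehyde arrays went the other way, from 8.22 to 8.28 untreated to 8.46 to 8.52 at 200 µM. MMS at 320 µM gave 8.54 to 8.55 at 4 h, against 8.29 to 8.35 untreated, and 8.80 to 8.91 at 24 h, against 8.25 to 8.30. EMS at 4 mM gave 8.66 to 8.73 at 24 h, against 8.25 to 8.29. In each of these the treated and untreated arrays did not overlap, except those of 50 µM formaldehyde. The median level of all tested genes moved too. At 4 h it was 8.117 to 8.172 on untreated formaldehyde arrays, 8.037 to 8.067 at 100 µM and 7.977 to 8.009 at 200 µM. At 24 h it was 8.194 to 8.246 with 320 µM MMS, against 8.056 to 8.179 untreated. With 4 mM EMS it was 8.225 to 8.278 at 24 h, against 8.135 to 8.193. The members' median lay between 8.16 and 8.31 on colcemid arrays and between 8.11 and 8.30 on vincristine arrays over all doses and times. At 24 h of vincristine it was 8.116 to 8.223 at the middle dose and 8.136 to 8.189 at the highest. Both ranges lay below the untreated 8.224 to 8.304, the middle dose only just.

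**Figure D1:**
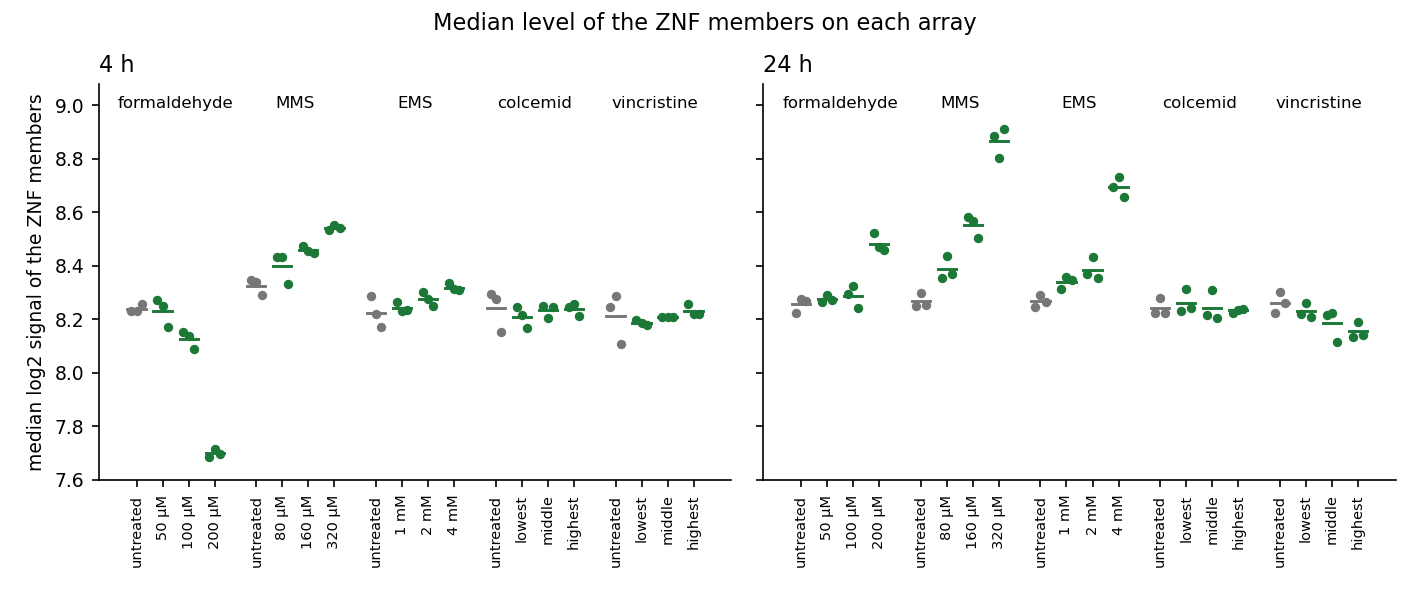
Median log2 signal of the 217 members on each array (points) and the mean of 3 arrays (lines), by chemical and dose, at 4 h and at 24 h, with untreated arrays in grey. The arrays of 200 µM formaldehyde lie at 7.69 to 7.72 at 4 h and at 8.46 to 8.52 at 24 h, and those of 320 µM MMS at 8.80 to 8.91 at 24 h.

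Which ZNF genes changed early with formaldehyde was asked first. After 4 h of 200 µM, 145 of the 217 members fell (66.8%, where 24.2% of all tested genes were called lower) and 18 rose (8.29%, where 29.6% were called higher). The median change was -0.37 over the members and 0.08 over all tested genes. The quartiles of the members were -0.75 and -0.06, and 172 of 217 changes were below 0. Of the members, 36 fell at least 2-fold, against 4.17% of all tested genes, and 0 rose that far. Among the 9487 other tested genes with a mean of 7.0 or more, 31.5% were lower and 31.5% higher. All 3 treated arrays were below all 3 untreated arrays for 141 members, 65.0%, against 24.4% of all tested genes. Leaving out 1 experiment brought the members called higher to 5.07% without experiment 1 and 4.15% without experiment 3.

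**Figure D2:**
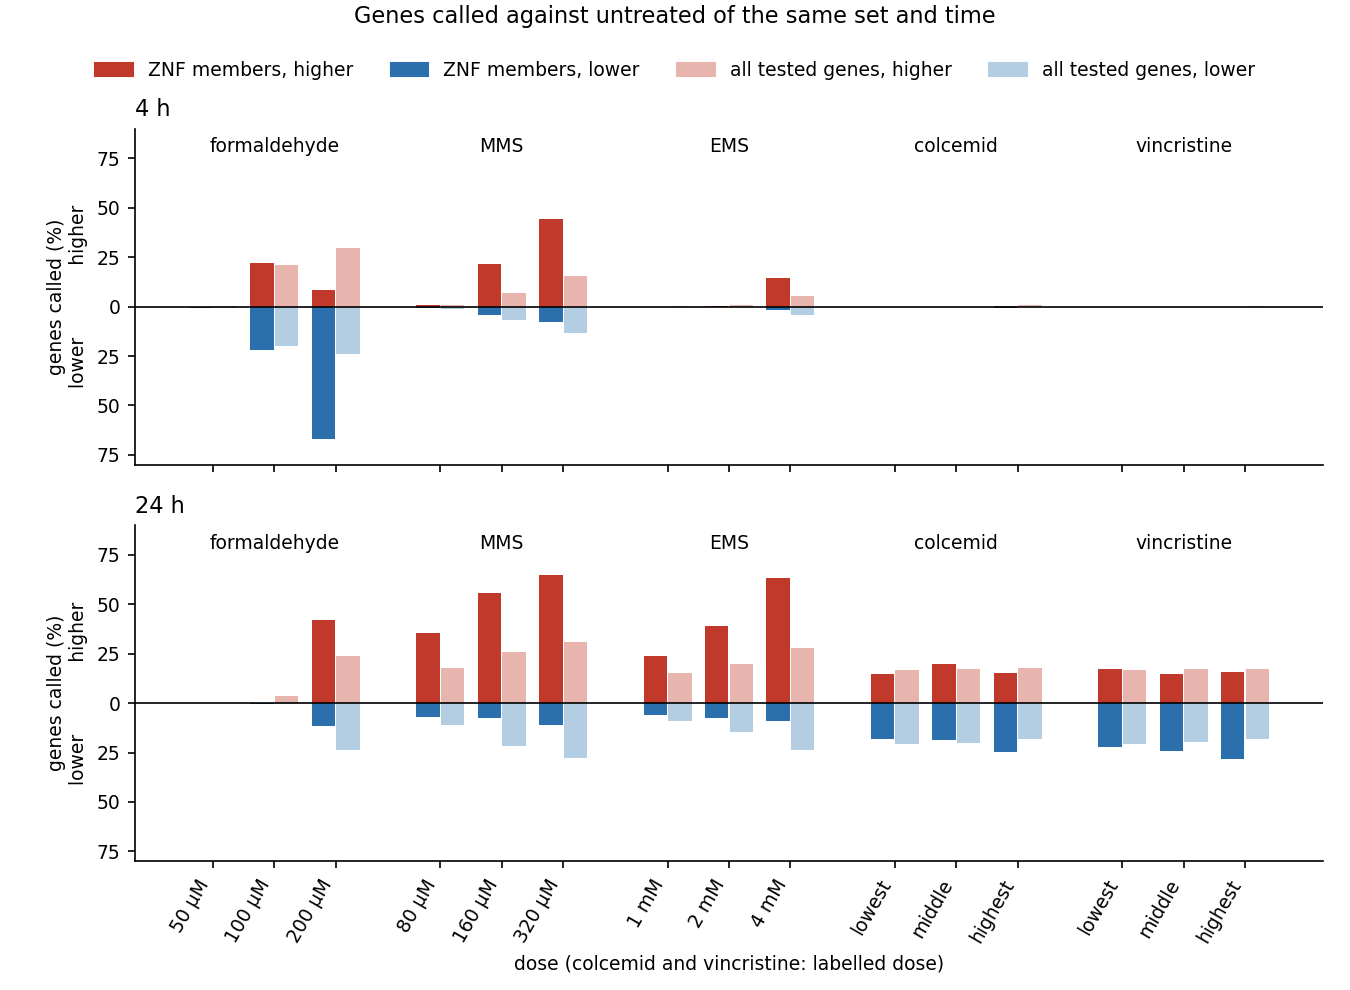
Share of the 217 members (dark bars) and of all 14023 tested genes (pale bars) called higher (up, red) or lower (down, blue) against untreated, for 3 doses of each chemical at 4 h (top) and 24 h (bottom). At 4 h of 200 µM formaldehyde 66.8% of members were lower, and at 24 h of 320 µM MMS 65.0% were higher.

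ZNF827, which recruits the NuRD chromatin remodelling complex, had the deepest fall. Its log2 signal was 9.05, 8.97 and 9.12 on the untreated arrays of experiments 1 to 3 and 6.05, 5.98 and 6.10 after 4 h of 200 µM formaldehyde. The groups did not overlap, with a measured log2 change of -3.01 ± 0.107 (adjusted p = 2.35e-15), whose size rests on treated arrays below the floor of 6.183 used for dim genes. ZNF644, a partner of the histone methyltransferases G9a and GLP, was at 9.80, 9.92 and 9.84 untreated and at 7.26, 7.24 and 6.96 treated. This was a fall of 6.503-fold (log2 change -2.70 ± 0.071, adjusted p = 4.41e-17). ZNF217, an oncogenic regulator that binds co-repressors and is one of the brightest members, went from 10.99, 11.01 and 11.10 to 9.27, 9.57 and 9.15, a log2 change of -1.70 ± 0.0796 (adjusted p = 1.57e-13).

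The other deep falls were mostly of genes with a row of C2H2 fingers and no well described target. ZNF708 on chromosome 19 was at 7.27, 7.41 and 7.62 untreated and at 5.26, 5.38 and 4.73 after 4 h of 200 µM formaldehyde (log2 change -2.31 ± 0.125, adjusted p = 1.75e-12). ZNF594 was at 6.89, 7.05 and 7.15 and then at 4.49, 4.88 and 4.68 (-2.35 ± 0.138, adjusted p = 6.25e-12). ZNF253 on chromosome 19 was at 7.32, 7.32 and 7.08 and then at 5.45, 5.52 and 4.92 (-1.94 ± 0.119, adjusted p = 1.13e-11). In ZNF708, ZNF594 and ZNF253, as in ZNF827, all 3 treated arrays lay below the floor of 6.183 while the untreated ones lay above it. ZNF627 was at 8.87, 8.99 and 8.70 and then at 6.48, 7.25 and 6.98 (-1.95 ± 0.125), and ZNF273 on chromosome 7 at 8.19, 8.21 and 7.96 and then at 6.31, 6.13 and 5.93 (-1.997 ± 0.0839), with 2 of the 3 treated arrays of ZNF273 below the floor. ZNF267 and ZNF107 changed by -1.81 and -1.79. For ZNF273 and ZNF594 a second, dimmer probe set was called the other way, by 0.75 from a mean of 6.38 for ZNF273 and by 0.26 from a mean of 5.48 for ZNF594.

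The 18 rises were small. ZNF552 was at 7.49, 7.78 and 7.46 untreated and at 8.35, 8.35 and 8.33 after 4 h of 200 µM formaldehyde, a log2 change of 0.76 ± 0.08, or 1.70-fold (adjusted p = 6.33e-08). ZNF302 went from 7.56, 7.69 and 7.58 to 8.43, 8.28 and 8.39, by 0.75 ± 0.0768 (adjusted p = 4.15e-08). In both genes every treated array lay above every untreated one. ZNF81 rose by 0.54 and ZNF211 by 0.40, and a second probe set of ZNF81 was called lower, at -0.44. ZNF512, ZNF71, ZNF254, ZNF683, ZNF213 and ZNF548 rose by 0.23 to 0.30, and the sign of ZNF254 turned to -0.81 with the mean of its probe sets. The calls of ZNF213, ZNF254, ZNF548 and ZNF71 were lost when 1 or more single experiments were left out.

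Members were also grouped by what their proteins do, from a panel written for this work. At 4 h of 200 µM formaldehyde 66.8% of all members were lower and 8.29% higher. Of all tested genes 24.2% were lower and 29.6% higher. All 5 chromatin complex members fell after 4 h of 200 µM formaldehyde: ZNF827, ZNF644, ZNF462 (-0.93), ZNF532 (-0.58) and ZNF592 (-0.47), the last 2 being partners of ZMYND8. Of 8 DNA-binding regulators 4 fell and 0 rose: ZNF148, which binds GC-rich promoters (-1.27 ± 0.0918, adjusted p = 1.73e-10), ZNF281, a regulator of stem cell and mesenchymal genes (-0.69 ± 0.0436, adjusted p = 1.96e-11), ZNF217 and ZNF395 (-0.23). The call of ZNF395 was lost without experiment 1 or 2, its value was 0.069 with the mean of its probe sets, and its second probe set was called higher. ZNF24 (-0.06), ZNF384 (-0.08) and ZNF76 (-0.03) were not called. Of 6 KRAB or SCAN repressors 4 fell: ZNF202 (-1.09), ZNF274, which brings SETDB1 to other ZNF genes (-0.92), ZNF445, a keeper of imprints (-0.54), and ZNF45 (-0.54). ZNF91 and ZNF93, which silence SVA and LINE-1 elements, had values of 0.20 and -0.20 and were not called. ZNF91 was called higher with repeated quantile normalization (0.32) and in 1 fit over all arrays (0.20), and ZNF93 was called lower without experiment 1 (-0.40).

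RNA, ribosome and spindle proteins among the members behaved unevenly at 4 h of 200 µM formaldehyde, with 4 lower and 2 higher of 9. Of all members 66.8% were lower and 8.29% higher, and of all tested genes 24.2% and 29.6%. ZNF622, a factor of large ribosomal subunit maturation, fell by 0.37, ZNF106 by 0.36, ZNF830 by 0.34 and ZNF638, a nuclear RNA-binding protein, by 0.33. ZNF326, which links splicing to the transcribing polymerase, rose by 0.20 and ZNF593, a factor of the large ribosomal subunit, by 0.14 ± 0.0596 (adjusted p = 0.0464), a call lost on leaving out experiment 1, 2 or 3. The calls of ZNF106, ZNF326 and ZNF638 were lost without experiment 3 and that of ZNF830 without experiment 2. ZNF207, a spindle protein and the brightest member at a mean of 12.1, was at 12.11, 12.14 and 12.22 untreated and at 12.07, 12.16 and 12.13 treated, which overlap (-0.04). The mean of its probe sets gave -0.61 and repeated quantile normalization -0.10, both called falls. ZNF598, the ubiquitin ligase of collided ribosomes, was at -0.06 and ZNF346, which binds double-stranded RNA, at -0.07, and neither was called. Of 4 DNA damage and p53 members, ZNF350, a BRCA1 partner, changed by -0.46 and ZNF420, an inhibitor of p53, by -0.78, both called lower, that of ZNF350 not without experiment 2. ZNF451, a SUMO ligase, was at -0.13 and ZNF432 at -0.13, neither called, though the mean of its probe sets gave ZNF451 a called fall, at -0.40.

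The response to dose was steep between 100 and 200 µM. At 50 µM and 4 h 1 member was called lower and 0 higher (limma, with 13 at an unadjusted p under 0.05), where 0.606% and 0.214% of all tested genes were called. At 100 µM 48 members fell and 48 rose, 22.1% each way, against 19.8% and 20.9% of all tested genes, so the members' shares lay near those of all genes. The median member change was 0.01, and 0.04 over all. Without experiment 1 the shares at 100 µM were 12.0% lower and 10.1% higher, and without experiment 3 13.8% were higher. In the direct comparison of 200 with 100 µM at 4 h, 131 members were lower and 10 higher (60.4% and 4.61%, against 17.5% and 17.4% of all tested genes), and 31 were lower by at least 2-fold. At 24 h the same comparison gave 20 lower and 84 higher (9.22% and 38.7%, against 22.2% and 20.5%).

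A few members fell as far or further at 100 µM as at 200 µM. ZNF407, the longest member gene at 467802 bases, was at 8.61, 8.44 and 8.17 untreated at 4 h, at 7.93, 8.03 and 7.54 with 50 µM formaldehyde, at 6.44, 7.002 and 6.46 with 100 µM and at 7.31, 7.39 and 7.27 with 200 µM. Its arrays were lowest at 100 µM, and the groups did not overlap. The log2 changes of ZNF407 were -0.57 ± 0.137 (adjusted p = 0.04998), -1.77 ± 0.137 (adjusted p = 1.33e-09) and -1.08 ± 0.137 (adjusted p = 9.42e-07) by rising dose, and 200 µM lay above 100 µM by 0.69 (adjusted p = 0.000351). ZNF143, an activator bound at many promoters, was at 9.03, 8.86 and 8.98 untreated, at 8.04, 8.04 and 7.99 with 100 µM and at 8.81, 8.81 and 8.80 with 200 µM. ZNF143 fell by 0.94 ± 0.0826 at 100 µM (adjusted p = 9.64e-09), was not called at 200 µM (-0.15, adjusted p = 0.131) except in 1 fit over all arrays, and the doses differed by 0.79 (adjusted p = 9.7e-08). The members lower by at least 2-fold at 100 µM were ZNF407, ZNF827 (-1.46), ZNF462 (-1.07) and ZNF678 (-1.23, named after its value was seen).

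Others turned from a rise at 100 µM to a fall at 200 µM. ZNF627 rose by 0.40 ± 0.125 at 100 µM (adjusted p = 0.0136), with arrays at 9.32, 9.24 and 9.20, before its fall at 200 µM, and the doses differed by -2.35 (adjusted p = 1.85e-12). ZNF79 was at 6.89, 6.75 and 6.70 untreated, at 7.81, 7.54 and 7.53 with 100 µM and at 6.35, 5.77 and 6.02 with 200 µM. The untreated, 100 µM and 200 µM arrays of ZNF79 were apart from each other, with a rise of 0.85 ± 0.112 (adjusted p = 2.72e-06), a later fall of 0.73 and a difference between doses of -1.58 (adjusted p = 1.81e-10). ZNF302 and ZNF552 rose at both doses.

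Gene length, which did not enter the choice of members, went with the early falls. Members were placed in a shortest (under 16770 bases), a middle and a longest (over 32173 bases) class of 73, 71 and 73 genes. At 4 h of 200 µM formaldehyde 42.5% of the shortest, 78.9% of the middle and 79.5% of the longest members were lower, against 11.7%, 22.7% and 35.7% of all tested genes within the same limits. At 100 µM the shares were 15.1%, 11.3% and 39.7%, against 5.62%, 9.01% and 36.7%. At 100 µM the middle and longest members were near all genes of their length, while at 200 µM the share of members lower was above that of all genes in every class, as a description with no test. Across the 217 members the change at 100 µM correlated with log gene length at Pearson's r = -0.39 (Spearman -0.26), and at 200 µM at r = -0.35 (Spearman -0.37); over 14006 tested genes r was -0.43 and -0.27. These points share the same arrays and genes are not independent replicates. By chromosome, 82.6% of the 23 members on chromosome 7, 78.6% of the 14 on chromosome 1 and 64% of the 75 on chromosome 19 were lower at 200 µM. On chromosome 16 26.3% of 19 members were lower, and on the other chromosomes 72.1% of 86. Over all chromosomes 24.2% of all tested genes were lower, and their shares by chromosome are not given here. The members' median length was 10230 bases on chromosome 16 and 27280 on chromosome 7, and its part in these shares was not tested.

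**Figure D3:**
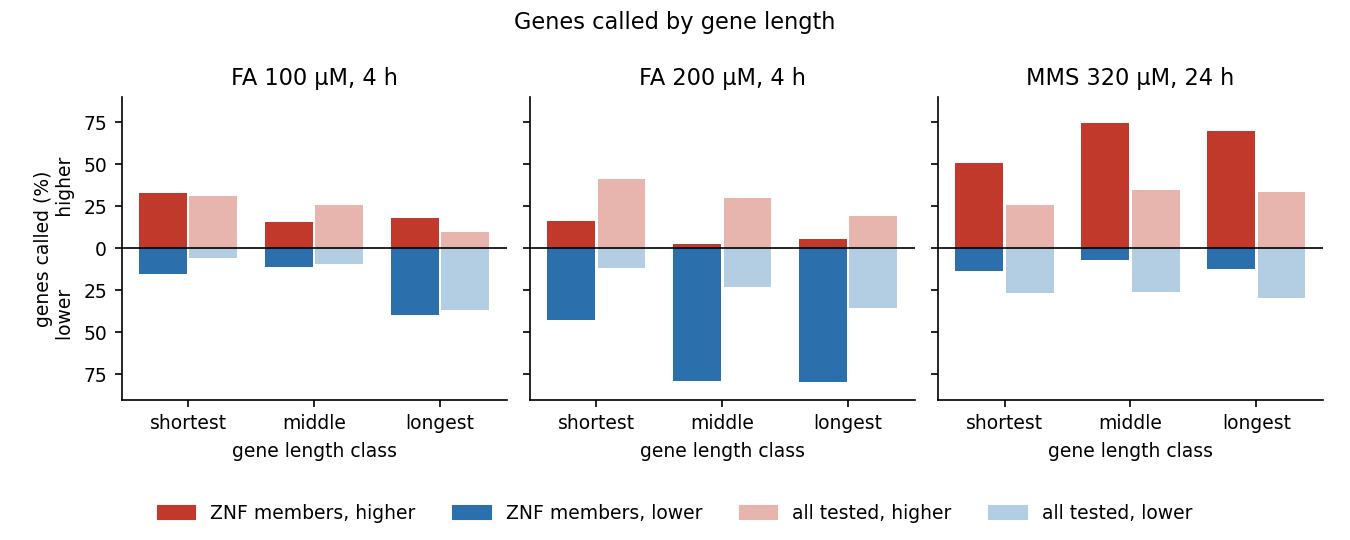
Share of members (dark) and of all tested genes (pale) called higher (up, red) or lower (down, blue) in 3 classes of gene length, for formaldehyde at 100 and 200 µM and 4 h and for MMS at 320 µM and 24 h. At 200 µM 42.5%, 78.9% and 79.5% of members from shortest to longest were lower.

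By 24 h of 200 µM formaldehyde more members were higher than lower. Of 217, 91 were higher (41.9%, where 23.8% of all tested genes were) and 25 lower (11.5%, where 23.9% were), with a median change of 0.14 against -0.03 over all. Without experiment 2 the share lower was 6.91%. At least 2-fold higher were 9 members (2.57% of all tested genes were). At 100 µM 1 was lower and 0 higher (limma; 21 at an unadjusted p under 0.05), where 0.385% and 3.42% of all tested genes were called, and at 50 µM 0 members were called in limma (1 at an unadjusted p under 0.05; 0.0% of all tested genes either way). The ACTB 3′ minus 5′ log2 difference, a sign of RNA quality, was 0.77 ± 0.0697 (SD, n = 3) at 24 h of 200 µM against 0.48 ± 0.0239 untreated. Its part in the 24 h changes was not tested.

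ZNF79 rose furthest at 24 h. Its log2 signal was 6.78, 6.97 and 6.80 untreated and 8.71, 8.47 and 8.59 with 200 µM formaldehyde, a rise of 3.35-fold (log2 change 1.74 ± 0.112, adjusted p = 3.32e-11). ZNF654 went from 8.07, 8.19 and 8.27 to 9.997, 9.66 and 9.94 (1.69 ± 0.0866, adjusted p = 9.35e-13). ZNF559 rose by 1.31, ZNF451 by 1.21 and ZNF195 by 1.21, and in ZNF195 the arrays moved from 9.10, 9.21 and 8.92 to 10.52, 10.19 and 10.14. The deepest fall at 24 h was that of ZNF395, from 8.26, 8.28 and 8.15 to 7.44, 7.74 and 7.33 (-0.73 ± 0.0842, adjusted p = 2.69e-07), followed by ZNF589 and ZNF318 (-0.50 each), ZNF652 (-0.46) and ZNF512 (-0.43).

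The difference between times was tested directly, as the 24 h change minus the 4 h change at 200 µM formaldehyde. It was higher at 24 h for 144 members (66.4%, against 25.8% of all tested genes) and lower for 16 (7.37%, against 27.5%), with a median of 0.64 against -0.09 over all. Of the 145 members lower at 4 h, 64 (44.1%, where 31.6% of all tested genes lower at 4 h turned higher) were higher at 24 h, 15 lower and 66 not called, and the difference was called higher for 125 and lower for 1. All 36 members at least 2-fold lower at 4 h had a difference called higher, and at 24 h 16 of them were higher, 3 lower and 17 not called. Both the 145 and the 36 were chosen by the 4 h change that the difference subtracts. Their choice thus favoured a difference called higher, and these counts are a description. ZNF827 had the largest difference, 3.29 ± 0.151 (adjusted p = 2.06e-13), and at 24 h its treated arrays (8.67, 8.78 and 8.67) lay just above the untreated ones (8.38, 8.55 and 8.34). ZNF253 differed by 3.04 ± 0.168 (adjusted p = 3.33e-12), rising at 24 h from 7.36, 7.47 and 7.38 to 8.58, 8.47 and 8.44, well above untreated. ZNF644 differed by 2.87 ± 0.1 (adjusted p = 4.47e-15), and at 24 h was not called, at 0.17. The differences of ZNF654 and ZNF708 were 2.91 and 2.58.

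**Figure D4:**
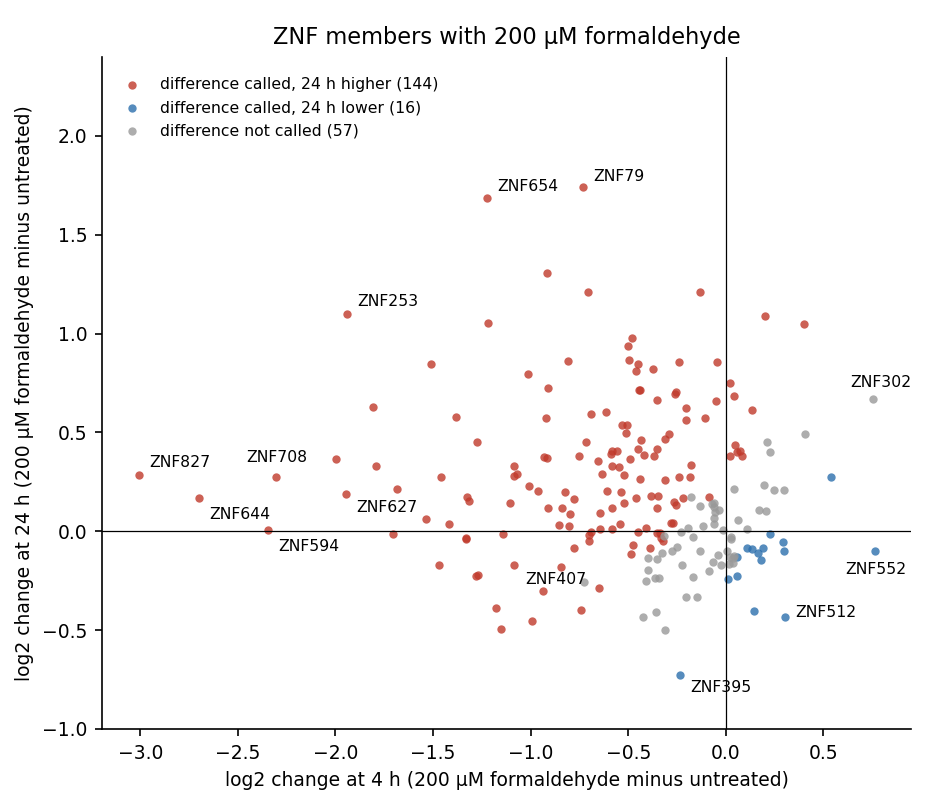
Each point is 1 of the 217 members, its log2 change at 4 h (x axis) and at 24 h (y axis) of 200 µM formaldehyde, coloured by whether the difference between times was called higher (144), lower (16) or not (57). ZNF827 lies at -3.01 and 0.28, and ZNF654 at -1.22 and 1.69.

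The opposite course was rare. The 24 h minus 4 h difference was lowest for ZNF552 (-0.86 ± 0.113, adjusted p = 1.54e-06), which had risen at 4 h and at 24 h was at 7.96, 7.81 and 7.86 against 7.97, 7.87 and 8.08 untreated. ZNF512 differed by -0.73 (adjusted p = 7.55e-06), ZNF593 by -0.55 (adjusted p = 1.22e-05), ZNF395 by -0.49 (adjusted p = 0.00152) and ZNF71 by -0.40 (adjusted p = 0.0113). The calls of ZNF395 and ZNF71 were lost without experiment 1. ZNF302 stayed higher at both times and its difference of -0.09 was not called.

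MMS raised the members already at 4 h. At 80, 160 and 320 µM 2, 47 and 96 of 217 were higher and 1, 9 and 17 lower. At 320 µM these were 44.2% higher and 7.83% lower, where 15.3% and 13.4% of all tested genes were called, and at 160 µM 6.97% of all were higher and 6.57% lower; at 80 µM 0.62% and 0.984%. Without experiment 1 the share lower at 320 µM was 4.61%. ZNF200 was at 9.41, 9.34 and 9.31 untreated and at 10.25, 10.31 and 10.32 with 320 µM MMS, which do not overlap (0.94 ± 0.0645, adjusted p = 5.52e-10). ZNF473, which serves the end processing of histone messenger RNA with the U7 particle, rose by 0.88 ± 0.0682 and ZNF184 by 0.88 ± 0.069. The deepest falls were those of ZNF827, from 9.36, 9.26 and 9.11 to 8.29, 8.45 and 8.33 (-0.89 ± 0.0782, adjusted p = 2.26e-08), ZNF217 (-0.79 ± 0.078) and ZNF407 (-0.69 ± 0.0567).

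At 24 h of MMS 77, 121 and 141 members were higher by rising dose, and 15, 16 and 24 lower. The backgrounds were 17.6%, 25.7% and 30.8% of all tested genes higher and 10.9%, 21.6% and 27.7% lower, against 65.0% and 11.1% of members at 320 µM. There 45 members rose at least 2-fold, where 5.67% of all tested genes did, and the median change was 0.38 against -0.04 over all. ZNF79 went from 6.56, 7.06 and 6.58 to 9.53, 9.55 and 9.59, a rise of 7.06-fold (2.82 ± 0.114, adjusted p = 7.71e-15), the largest rise of any member at any highest dose. ZNF473 went from 7.77, 7.99 and 7.80 to 10.39, 10.33 and 10.48, a rise of 5.83-fold (2.54 ± 0.0682, adjusted p = 1.26e-17). ZNF654 rose by 2.13 ± 0.0859. ZNF22 fell from 9.98, 9.99 and 9.90 to 8.98, 9.02 and 8.91 (-0.99 ± 0.0472, adjusted p = 1.09e-13), ZNF639 by 0.67 and ZNF593 by 0.66. On these arrays ACTB had a 3′ minus 5′ difference of 1.88 ± 0.26 (SD, n = 3) against 0.94 ± 0.0792 untreated, and its part in these changes was not tested. The 24 h minus 4 h difference with 320 µM MMS was called higher for 108 members and lower for 24 (25.6% and 19.7% of all tested genes).

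EMS followed with fewer early calls. At 4 h 0, 1 and 32 members were higher at 1, 2 and 4 mM and 0, 0 and 4 lower, where 5.55% of all tested genes were higher and 4.05% lower at 4 mM (0.72% and 0.335% at 2 mM, 0.107% and 0.0357% at 1 mM). At 1 mM 8 members had an unadjusted p under 0.05 in limma, and at 2 mM 29. Without 1 experiment, 3.69% to 7.83% of members were higher at 4 mM in place of 14.7%, and the repeated quantile normalization gave 23.0%. ZNF200 (0.51), ZNF224 (0.49) and ZNF654 (0.46) led the rises, and ZNF407 (-0.32), ZNF827 (-0.32) and ZNF217 (-0.28) the falls, so ZNF827, ZNF217 and ZNF407 were lower at 4 h with formaldehyde, MMS and EMS. The EMS call of ZNF827 was lost without experiment 1, 2 or 3, that of ZNF217 without 1 or 3 and that of ZNF224 without 3; with the mean of probe sets ZNF224 and ZNF654 were not called. ZNF211, ZNF302, ZNF512 and ZNF740 (named after its values were seen) were higher at 4 h with those 3 chemicals. These were 1.84% of members against 1.71% of all tested genes, and those lower with all 3 were 1.38% against 2.3%.

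At 24 h of EMS 52, 85 and 137 members were higher by rising dose and 13, 16 and 20 lower. At 4 mM these were 63.1% higher and 9.22% lower, where 27.8% and 23.6% of all tested genes were called (15.4% and 8.94% at 1 mM, 19.9% and 14.7% at 2 mM). On the 4 mM arrays ACTB had a 3′ minus 5′ difference of 0.66 ± 0.0342 (SD, n = 3) against 0.52 ± 0.0715 untreated, and the summed signal of other cell types' markers was 93.6 to 95.7 against 95.3 to 96.0, with 3 lower and 1 higher. Their part in these changes was not tested. The 4 mM rises included 21 of at least 2-fold, against 2.85% of all tested genes. ZNF79 went from 6.84, 6.73 and 6.72 to 9.13, 8.87 and 8.89 (2.20 ± 0.096, adjusted p = 6.18e-14) and ZNF195 from 8.89, 9.18 and 8.95 to 10.97, 10.97 and 10.84 (1.92 ± 0.0767, adjusted p = 1.62e-14). ZNF253 rose by 1.52, ZNF593 fell by 0.70, ZNF22 by 0.55 and ZNF395 by 0.53. MMS and EMS shared 127 higher members, 90.1% of those higher with MMS and 92.7% of those higher with EMS, where over all tested genes the shares were 75.7% and 83.7%. Across the 217 members their 24 h changes correlated at Pearson's r = 0.92 and Spearman's rho = 0.91, as a description over genes of 2 sets with separate controls. The 24 h minus 4 h difference with EMS was higher for 110 members and lower for 16 (21.4% and 16.9% of all tested genes).

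The tubulin binders changed few members at 4 h, and at 24 h more members were lower than higher at the highest dose. At 4 h vincristine gave 0 member calls at any dose in limma, with 9, 8 and 23 at an unadjusted p under 0.05 by rising dose (at most 0.0642% of all tested genes were lower and 0.185% higher). Colcemid gave 0, 0 and 1 lower and 0, 0 and 1 higher, with 1, 4 and 16 at an unadjusted p under 0.05, where 0.0428% of all tested genes were lower and 0.0214% higher at the middle dose, and 0.107% of all tested genes were lower and 0.806% higher at the highest dose. At 24 h the highest colcemid dose gave 54 members lower and 33 higher, 24.9% and 15.2%, against 18.3% and 18.0% of all tested genes. Of the 9487 other tested genes above the limit 24.7% were lower and 23.3% higher with colcemid, so the members' share lower lay near theirs. The lowest and middle colcemid doses gave 39 and 40 lower and 32 and 43 higher, where 20.7% and 20.3% of all tested genes were lower and 16.6% and 17.4% higher. The highest vincristine dose gave 61 lower and 34 higher, 28.1% and 15.7%, against 18.2% and 17.5%. Among the 9487 other tested genes above the limit, 23.8% were lower and 22.8% higher. The lowest and middle vincristine doses gave 48 and 53 lower and 38 and 32 higher (20.8% and 19.5% of all tested genes lower, 16.6% and 17.4% higher). Without single experiments the share lower was 15.7% for colcemid (without experiment 2) and 17.1% for vincristine (without experiment 2), and the share higher 9.22% and 6.91% (without experiment 1). Colcemid and vincristine shared 45 lower members, 83.3% of the colcemid list and 73.8% of the vincristine list, against 76.5% and 76.9% over all tested genes. The 24 h minus 4 h difference at the highest dose was lower for 28 members and higher for 21 with colcemid (12.0% and 10.5% of all tested genes), and lower for 40 and higher for 15 with vincristine (12.4% and 10%).

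ZNF443 and ZNF672 fell furthest with vincristine, and ZNF395 and ZNF672 with colcemid. With the highest vincristine dose at 24 h ZNF443 went from 9.20, 9.34 and 9.29 to 8.07, 8.17 and 7.98 (-1.20 ± 0.059, adjusted p = 1.58e-12), and with colcemid from 9.20, 9.22 and 9.13 to 8.35, 8.42 and 8.30 (-0.83 ± 0.0703, adjusted p = 1.1e-08). ZNF672 fell by 1.16 ± 0.0569 with vincristine and by 0.97 ± 0.049 with colcemid, while at 24 h of MMS and EMS it rose by 0.83 and 0.66. ZNF395 fell by 0.99 ± 0.0926 with colcemid, from 8.12, 8.24 and 8.15 to 7.37, 7.14 and 7.01, and ZNF503 by 0.86 ± 0.0859 with vincristine. ZNF140, a KRAB repressor, rose from 8.63, 8.64 and 8.70 to 9.14, 9.24 and 9.21 with colcemid (0.54 ± 0.06, adjusted p = 4.01e-07) and by 0.56 ± 0.0758 with vincristine. ZNF91 rose by 0.54 ± 0.0776 and 0.55 ± 0.0676 with colcemid and vincristine, ZNF79 by 0.55 ± 0.111 with colcemid and ZNF267 by 0.45 ± 0.0734 with vincristine.

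**Figure D5:**
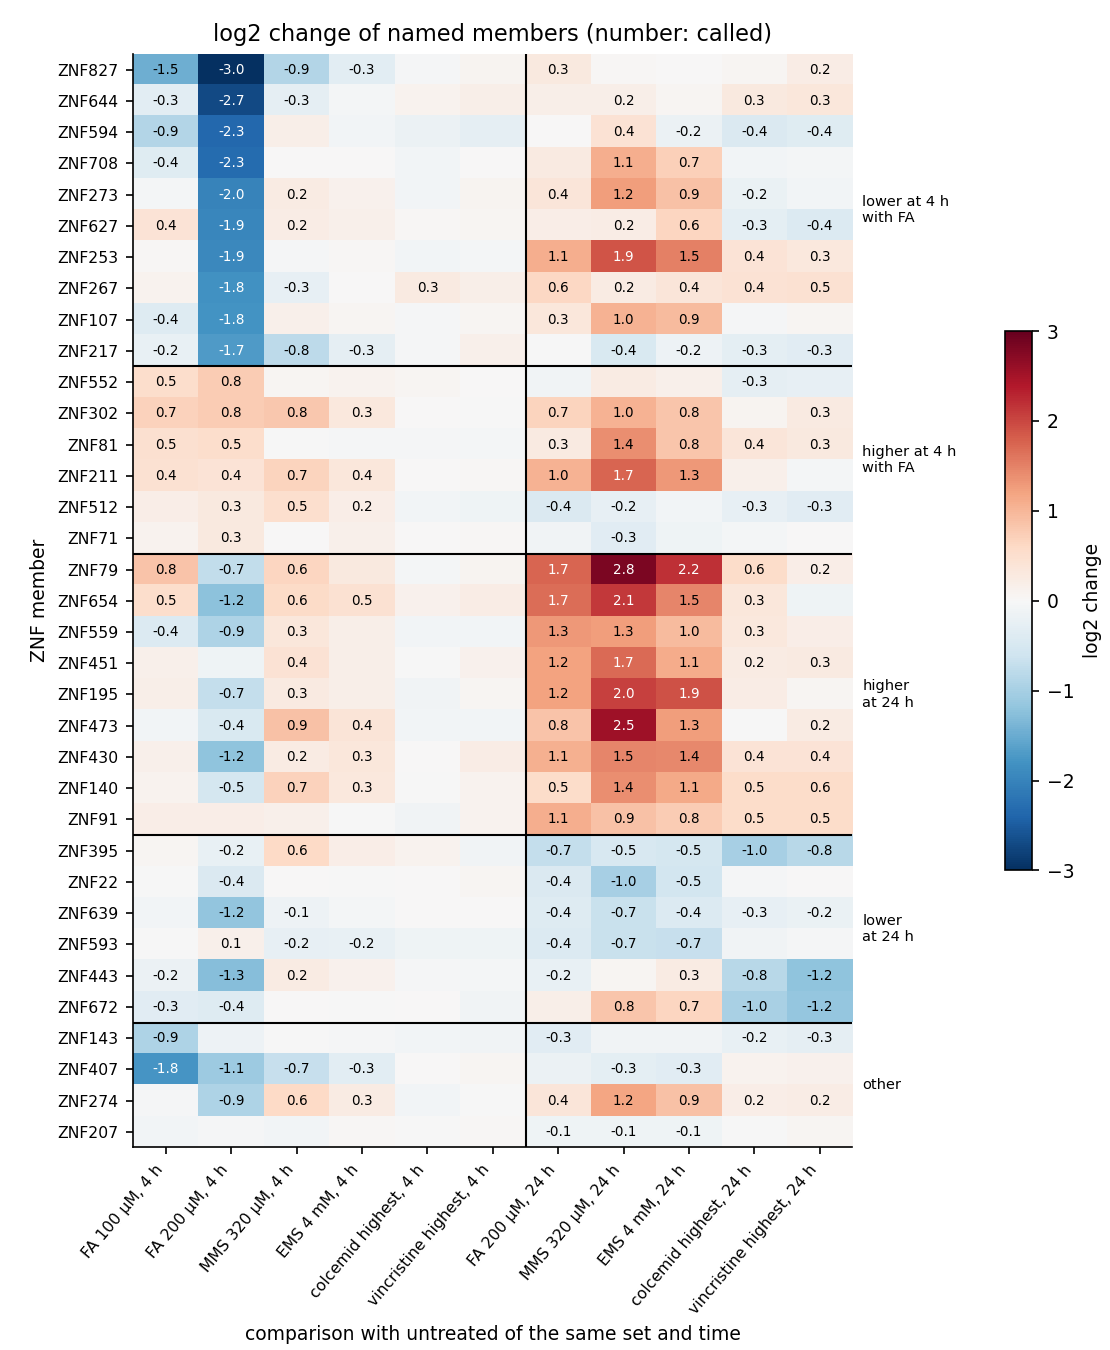
Log2 change of 35 named members (rows) at 100 µM formaldehyde and 4 h and at the highest dose of each chemical at 4 h and 24 h (columns), with the value printed where it was called. ZNF827 reads -3.0 at 4 h of 200 µM formaldehyde and ZNF79 2.8 at 24 h of 320 µM MMS.

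Across the 5 chemicals at 24 h, 18 members (8.29%) were higher at the highest dose of every one, as were 6.37% of all tested genes. Ranked by their mean change they were led by ZNF79, ZNF253, ZNF430, ZNF451 and ZNF140. ZNF430 rose by 1.06 with formaldehyde, 1.47 with MMS, 1.44 with EMS, 0.41 with colcemid and 0.42 with vincristine. Lower in all 5 sets were 5.51% of all tested genes and 4 members (1.84%), ZNF395, ZNF639, ZNF652 and ZNF526, the last named after its values were seen. ZNF639 fell by 0.39 with formaldehyde, 0.67 with MMS, 0.41 with EMS, 0.25 with colcemid and 0.20 with vincristine. With formaldehyde, MMS and EMS together, 84 members were higher and 12 lower at 24 h (38.7% and 5.53%, against 16.4% and 13.6% of all tested genes). Lower at 4 h with formaldehyde and higher at 24 h with all 3 were 59 members, 27.2%, against 5.41%. A further 10 members (4.61%, against 15.4%) were called at no highest dose and time.

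Formaldehyde was set against each other chemical at the highest doses, which are not matched, by the difference of the changes. The comparisons share the formaldehyde arrays. At 4 h the formaldehyde change was lower for 146 members against MMS, 137 against EMS, 125 against colcemid and 129 against vincristine, and higher for 6, 7, 13 and 11. The backgrounds were 21.4%, 21.4%, 22.2% and 22.2% of all tested genes lower and 18.4%, 20.6%, 21.1% and 21.2% higher. Against MMS 67 members (30.9%, against 4.76% of all tested genes) were called lower with formaldehyde and higher with MMS. The difference was called for all 67, which their choice by those same 2 changes nearly fixes in advance. ZNF200 was such a member, at 9.248, 9.185 and 9.001 untreated and 8.80, 8.67 and 8.65 with 200 µM formaldehyde, with a difference from MMS of -1.38 ± 0.092 (adjusted p = 2.86e-15). The largest differences included ZNF594 (-2.51 ± 0.195) and ZNF827 (-2.12 ± 0.136). At 24 h the formaldehyde change was lower than that of MMS for 99 members and of EMS for 70 and higher for 14 and 8 (21.6% and 14.1% of all tested genes lower, 14.4% and 10.6% higher). Against colcemid and vincristine it was higher for 88 and 92 and lower for 11 each (16.9% and 18.2% higher, 15.8% and 16.3% lower).

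By role, all 6 KRAB or SCAN repressors of the panel were higher at 24 h with MMS and with EMS, with medians of 0.89 and 0.66, beside 65.0% and 63.1% of all members and 30.8% and 27.8% of all tested genes. With formaldehyde 5 were higher and 0 lower, with colcemid 2 higher and 1 lower and with vincristine 3 higher and 1 lower. In that order 41.9%, 15.2% and 15.7% of all members were higher, and 23.8%, 18.0% and 17.5% of all tested genes. ZNF274 went from 8.25, 8.51 and 8.31 to 9.571, 9.500 and 9.555 with MMS and from 8.14, 8.08 and 7.97 to 7.20, 7.19 and 7.05 at 4 h of 200 µM formaldehyde, so its groups did not overlap in either direction. The 4 DNA damage and p53 members were all higher at 24 h with MMS (median 1.63) and with EMS (1.06) and 2 with formaldehyde, ZNF451 and ZNF350 (0.81). With MMS ZNF350 rose by 1.92, ZNF451 by 1.71, ZNF420 by 1.56 and ZNF432 by 0.90. ZNF350 lay just inside the member limit at a mean of 7.006, so its rises helped it pass. Of the 6 genes listed in this group, ZNF365 and ZNF668 were not members, so these counts leave them out. The 8 DNA-binding regulators and the 9 RNA, ribosome and spindle members were split: 2 lower and 3 higher, and 2 lower and 5 higher, at 24 h of MMS. The panel was written with earlier results of these data known, and its counts support nothing by themselves.

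The partners of the KRAB class and related zinc finger families were counted beside the members. At 4 h of 200 µM formaldehyde 24.2% of all tested genes were lower and 29.6% higher, against 66.8% and 8.29% of members. At 24 h of the highest MMS dose 27.7% of all tested genes were lower and 30.8% higher, against 11.1% and 65% of members. Of 17 co-repressor genes 9 were lower and 4 higher at 4 h of 200 µM formaldehyde, with a median of -0.14. SETDB1 fell by 0.90 and TASOR, of the HUSH silencing complex, by 0.43, while TRIM28 rose by 0.29, HDAC2 by 0.18 and HDAC1 by 0.13. At 24 h of MMS 8 were lower and 6 higher, CBX3 falling by 0.81 and UHRF1 rising by 0.55. Lower at 4 h of 200 µM formaldehyde were 26 of 39 ZBTB, 11 of 15 ZSCAN, 5 of 7 ZKSCAN and 7 of 11 ZFP genes, with 0, 0, 0 and 1 higher, and 15 of 21 ZNF genes with a letter after the digits, with 2 higher. KLF genes, a C2H2 family with few fingers, had 2 lower and 2 higher of 11. At 24 h of MMS 6 of 7 ZKSCAN and 20 of 39 ZBTB genes were higher, and 1 of 11 KLF genes. Of the 83 dimmer ZNF genes that were tested, 29 were lower and 12 higher at 4 h of 200 µM formaldehyde, with a median of -0.07, and 38 higher and 10 lower at 24 h of MMS.

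Some measurements of the arrays bear on how these counts are read. In experiment 3 the untreated 4 h array of formaldehyde had an ACTB 3′ minus 5′ difference of 0.68, against 0.35 and 0.30 for experiments 1 and 2, and without it 64.5% of members were lower and 6.45% higher at 200 µM. Of the 145 and 18 members called there, 119 had a second probe set, which had the same sign for 83 and was called the same way for 56 and the other way for 8: ZNF273, ZNF394, ZNF395, ZNF544, ZNF594, ZNF777, ZNF81 and ZNF865, of which ZNF394, ZNF544, ZNF777 and ZNF865 were named after their values were seen. At 24 h of MMS 125 called members had one, with the same sign for 105 and called the other way for 1. Probe sets that can bind transcripts of several genes, marked _x_at, measured 25 members, and without them 68.2% of the remaining 192 were lower at 4 h of 200 µM formaldehyde. Members with near-identical fingers may share such signal.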

How the data were processed

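The deposited values are log2 signals per probe set of Affymetrix HG-U133 Plus 2 arrays, which the authors made with RMA according to the submitters' processing notes; its version and the arrays it was run over are not given in the sources used here. Of 54675 probe sets 62 were controls, 41091 named 1 gene symbol, 1801 several and 11721 none, and only those with 1 symbol were used. Of 19775 genes, the 14023 that reached 6.183, the median of the probe set means, on at least 3 arrays were tested.

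Models were fitted with limma 3.58.1 in R 4.3.3, over the 24 arrays of a chemical (8 group means, no block) or, for differences between chemicals, over 48 arrays. Tests were two-sided, adjusted by Benjamini and Hochberg over all tested genes of each comparison and called at 0.05. The models were tested on simulated data. Counting and plotting used python 3.11.15, numpy 2.4.6, pandas 2.3.3 and matplotlib 3.10.9. Promoters and gene lengths are from RefSeq (GRCh38.p14). Protein sequences, and so KRAB boxes and finger counts, were not used here.

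Named members are those called and changed the same way in all 3 experiments with the largest changes (10 each way for formaldehyde at 4 h, 5 at 24 h and for the difference between times, 3 for other chemicals), up to 5 at each time called the same way in most sets, 2 on each side of the limit, and a panel by role. The members and lists were chosen with earlier results of these data known. Alternatives were a block for the experiment number, testing dim genes too, averaging a gene's probe sets, repeated quantile normalization, 1 fit over all arrays, member limits of 6.5 and 7.5, leaving out each experiment, leaving out 1 untreated formaldehyde array (4 h, experiment 3) and, added after seeing the data, no _x_at probe sets.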

Additional observations from a re-analysis of the deposited data

Results flagged for a closer look

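The 24 h minus 4 h difference of changes was tested at the highest dose of each chemical, and members with a called difference were marked for a second look. With formaldehyde 144 members were higher and 16 lower at 24 h, with MMS 108 and 24, with EMS 110 and 16, with colcemid 21 and 28, and with vincristine 15 and 40. In that order 25.8%, 25.6%, 21.4%, 10.5% and 10% of all tested genes were higher, and 27.5%, 19.7%, 16.9%, 12% and 12.4% lower. The colcemid members, 9.68% higher and 12.9% lower, lay near those shares. In the difference between chemicals at 4 h the formaldehyde change was lower for 146 members and higher for 6 against MMS, 137 and 7 against EMS, 125 and 13 against colcemid, and 129 and 11 against vincristine. In that order 21.4%, 21.4%, 22.2% and 22.2% of all tested genes were lower, and 18.4%, 20.6%, 21.1% and 21.2% higher. At 24 h the formaldehyde change was lower for 99 and higher for 14 against MMS, 70 and 8 against EMS, 11 and 88 against colcemid, and 11 and 92 against vincristine. In that order 21.6%, 14.1%, 15.8% and 16.3% of all tested genes were lower, and 14.4%, 10.6%, 16.9% and 18.2% higher. All calls are at an adjusted p under 0.05 from limma over all tested genes, and doses were not matched between chemicals.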

How the results depend on the processing

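The shares of members called were recomputed under each alternative: 184 of 202 values stayed within 1.5 times the main count. Without 1 experiment the ranges were, for formaldehyde at 4 h, 4.15% to 6.45% higher at 200 µM, and 12.0% to 19.4% lower and 10.1% to 21.7% higher at 100 µM; at 24 h of 200 µM 6.91% to 9.22% lower; for MMS at 4 h 4.61% to 5.99% lower; for EMS at 4 h 0.461% to 0.922% lower and 3.69% to 7.83% higher; at 24 h for colcemid 15.7% to 18.4% lower and 9.22% to 13.4% higher, and for vincristine 17.1% to 22.6% lower and 6.91% to 13.4% higher. Leaving out an experiment leaves fewer arrays. Repeated quantile normalization gave 23.0% higher for EMS at 4 h, and the cause was not tested. The mean of probe sets reversed ZNF254 (-0.81) and ZNF395 (0.06909) at 4 h of 200 µM formaldehyde. The labels do not say what an experiment number shares. Deviations of same-numbered treated and untreated arrays had a mean correlation above 0 in 29 of 30 comparisons (median 0.285, against -0.141 for other numbers), but were over 0.1 for every pair in only 19, so the arrays were not treated as paired. Deviations sum to 0 within a group, so the value for other numbers largely follows from that for the same number and is no separate contrast. With experiment as a block, the pairing changed none of the 105 named changes; 149 members were lower and 19 higher at 4 h of 200 µM formaldehyde (68.7% and 8.76%), and 44 in place of 32 were higher at 4 h of EMS. Of 892 values of named changes, 854 kept direction and call, 29 lost a call, 7 gained one and 2 reversed. Over the 30 dose comparisons the median of all genes stayed within -0.055 and 0.090 under the settings recomputed across all genes. Among the 9 comparisons whose split of higher against lower calls was recomputed, that of vincristine at 24 h alone moved by over 10 points, from 35.8% to 24.2% higher without experiment 1.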
